A study of Mus musculus with 52 samples.

Results

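The genes described here are 35 nuclear receptors and nuclear receptor coregulators outside the PPAR, RXR and LXR families. They were chosen by symbol, and each was read from the probe set annotated to that gene alone, or from the one with the highest mean signal where there was more than 1. Of the 35, 34 had such a probe set among the 22180 genes read this way, and Ncor1 was not analysed here. The cells were primary bone marrow stromal cultures from female C57BL/6J mice, aged 8 weeks, with marrow of 2 to 4 animals pooled for each experiment. On day 7 after plating, cultures were switched to an osteoinductive medium with ascorbate, β-glycerol phosphate, insulin and 10 nM dexamethasone, a synthetic glucocorticoid, and were dosed at the same time. The chemical groups were rosiglitazone (Rosi, 100 nM, a PPARγ agonist drug), LG100268 (LG268, 100 nM, an RXR agonist), tributyltin (TBT, 80 nM, an organotin that binds RXR and PPARγ), the flame retardant triphenyl phosphate (TPhP) and MEHP, the monoester formed from the plasticiser DEHP, with the doses of TPhP and MEHP not given in the sources used here. Each was sampled after 1 and 4 days in the same medium. Vehicle cultures (0.1% DMSO) were sampled on both days. Naive cultures are labelled as undifferentiated cells of day 0; the protocol also calls naive the cells left undosed in the new medium, so whether they saw that medium is not settled by the labels. Each of the 13 groups held 4 arrays, 1 from each of the pools numbered 12, 15, 19 and 20, so 52 arrays in all, and values in a row below are in that order of pools.

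Nuclear receptors are transcription factors that bind DNA and, in most families, a small lipophilic ligand such as a steroid, thyroid hormone or the active form of vitamin D. Coactivators of the p160 family (Ncoa1, Ncoa2 and Ncoa3) bind receptors that hold an agonist and recruit enzymes that open chromatin, whereas corepressors such as Ncor1 silence target genes. Marrow stromal cells can become bone-forming osteoblasts or adipocytes, and the vitamin D, glucocorticoid, thyroid hormone and estrogen receptors all act in these lineages.

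Levels are log2 signals, which can be compared between samples of one gene but not between genes. A gene was tested where its signal was above 4.05, the median of the deposited table, on at least 4 arrays. Of the 34 genes, 28 passed, and Nr0b1, Nr1h4, Nr1i3, Esrrb, Rorb and Hnf4g stayed below it on every array. Of the 28, 5, namely Nr6a1, Nr5a2, Nr4a3, Nr5a1 and Pgr, exceeded it on 4, 5, 12, 19 and 21 of the 52 arrays and are near background. Hnf4a, Esrrg and Nr2f1 exceeded it on 43, 44 and 48 arrays, but averaged only 4.25, 4.24 and 4.34. A lack of calls says little about genes so close to it. Differences are between group means with their standard errors (SE) from 1 limma fit of all arrays, which does not use the pairing of arrays by pool. A gene is called where its p, adjusted by Benjamini-Hochberg over all 14911 genes tested, is under 0.05. A second fit with the pool as a block ended none of the calls and added 13. Its adjusted p is given where it added a call. Where a call was lost without 1 of the pools, its adjusted p without that pool is given. The difference without that pool is given too where its size moved by over 1.5 times. The genes and the further lists were chosen with earlier results of these data known, so their shares beside those of all genes are descriptive only.

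Markers of several cell types were present. The mean log2 signal of 6 macrophage markers was 9.22 to 10.59 over the Rosi day 4 arrays and 10.68 to 11.10 over the vehicle day 4 arrays, and that of 6 stromal markers was 8.48 to 9.03 and 9.38 to 9.80 in the same groups. The 2 erythroid markers on the array did not pass the filter. At day 4 adipocyte markers rose in each chemical group (6 of 6 tested with Rosi, TPhP and MEHP, 5 with TBT, 3 with LG268). Osteoblast markers fell in 5 of 7 with Rosi, 4 with TBT and with MEHP and 3 with TPhP, and none of the 7 passed with LG268, where 4 had an unadjusted p under 0.05 and 2 were called with the pool as a block. Without pool 20 the osteoblast counts were 2 with TBT and 1 with TPhP, and without pool 12 the LG268 count was 2. Without pool 12, 15 or 20 the adipocyte count with LG268 was 2. All 6 macrophage markers and 4 of 6 stromal markers fell with Rosi, where 27.7% of all genes fell. The shares of all genes called in each of these comparisons are given below and belong beside these counts. Of 5 osteoclast markers tested, 3 fell with Rosi, TPhP and MEHP, 4 with TBT, and 3 with LG268 (1 without pool 19 and 0 without pool 20). Of 5 smooth muscle markers, 4 fell with Rosi, TBT, TPhP and MEHP; without pool 19 or 20 the count was 1 with TBT and 0 with TPhP, and without pool 19 it was 2 with MEHP. Endothelial markers rose in 5 of 5 with TBT (3 without pool 19, 2 without pool 20), in 3 with MEHP (0 without pool 19 or 20) and in 2 with LG268 (1 without pool 12 and 0 without any other). Of 6 neutrophil markers, 4 fell with LG268 and 3 with TBT, and none did without pool 15, 19 or 20, against 5 with TBT without pool 12. With TBT 2 of 4 B cell markers rose (none without pool 19 or 20). At day 1 with Rosi, 5 of 6 adipocyte markers rose, with mean within-pool differences of 3.19, 2.86, 2.53 and 2.85, and 3 of 5 smooth muscle markers fell (1 without pool 15 or 20, and 2 without pool 19). At day 1 the number of adipocyte markers that rose was 1 with LG268, 2 with TPhP and 3 with TBT and with MEHP, and without single pools these counts were 0 to 3. These are bulk cultures, in which fewer cells of a type and less RNA per cell cannot be told apart, and the part of these shifts in the results below was not tested.

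Against vehicle at day 4, 9 of the 28 tested genes were called with Rosi (6 higher and 3 lower), beside 49.1% of all genes tested (21.3% higher and 27.7% lower). The same count was 3 with LG268 (all higher, background 6.47%, 4.21% higher and 2.26% lower), 6 with TBT (4 higher, background 20.1%, 10.6% higher and 9.42% lower), 5 with TPhP (4 higher, background 18.9%, 11% higher and 7.94% lower) and 7 with MEHP (5 higher, background 23.8%, 12.1% higher and 11.7% lower). With the pool as a block the TPhP count was 8. Fitting only the arrays compared gave 0 with LG268 and 3 with each of TPhP and MEHP. At day 1, 6 were called with Rosi (4 higher, background 7.25%, 4.16% higher and 3.08% lower), with 2 without pool 19 and 1 without pool 20. Over all genes the Rosi day 1 count was 585 without pool 19 and 430 without pool 20, beside 1081. Leaving out pools 12, 15, 19 and 20 in turn gave 1, 2, 1 and 1 calls with LG268 at day 4, 8, 6, 3 and 3 with TPhP, and 8, 7, 3 and 3 with MEHP. The Rosi day 4 share, 32.1%, was thus below that of all genes, and the TBT, TPhP and MEHP shares, 21.4%, 17.9% and 25%, were near it. The median log2 difference over the 28 genes at day 4 was between 0.05 with TPhP and 0.07 with MEHP, beside -0.03 and -0.05 over all genes. What follows is therefore about single genes. All chemical groups of a day share 4 vehicle arrays, so their differences from vehicle are not independent of each other.

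**Figure D1:**
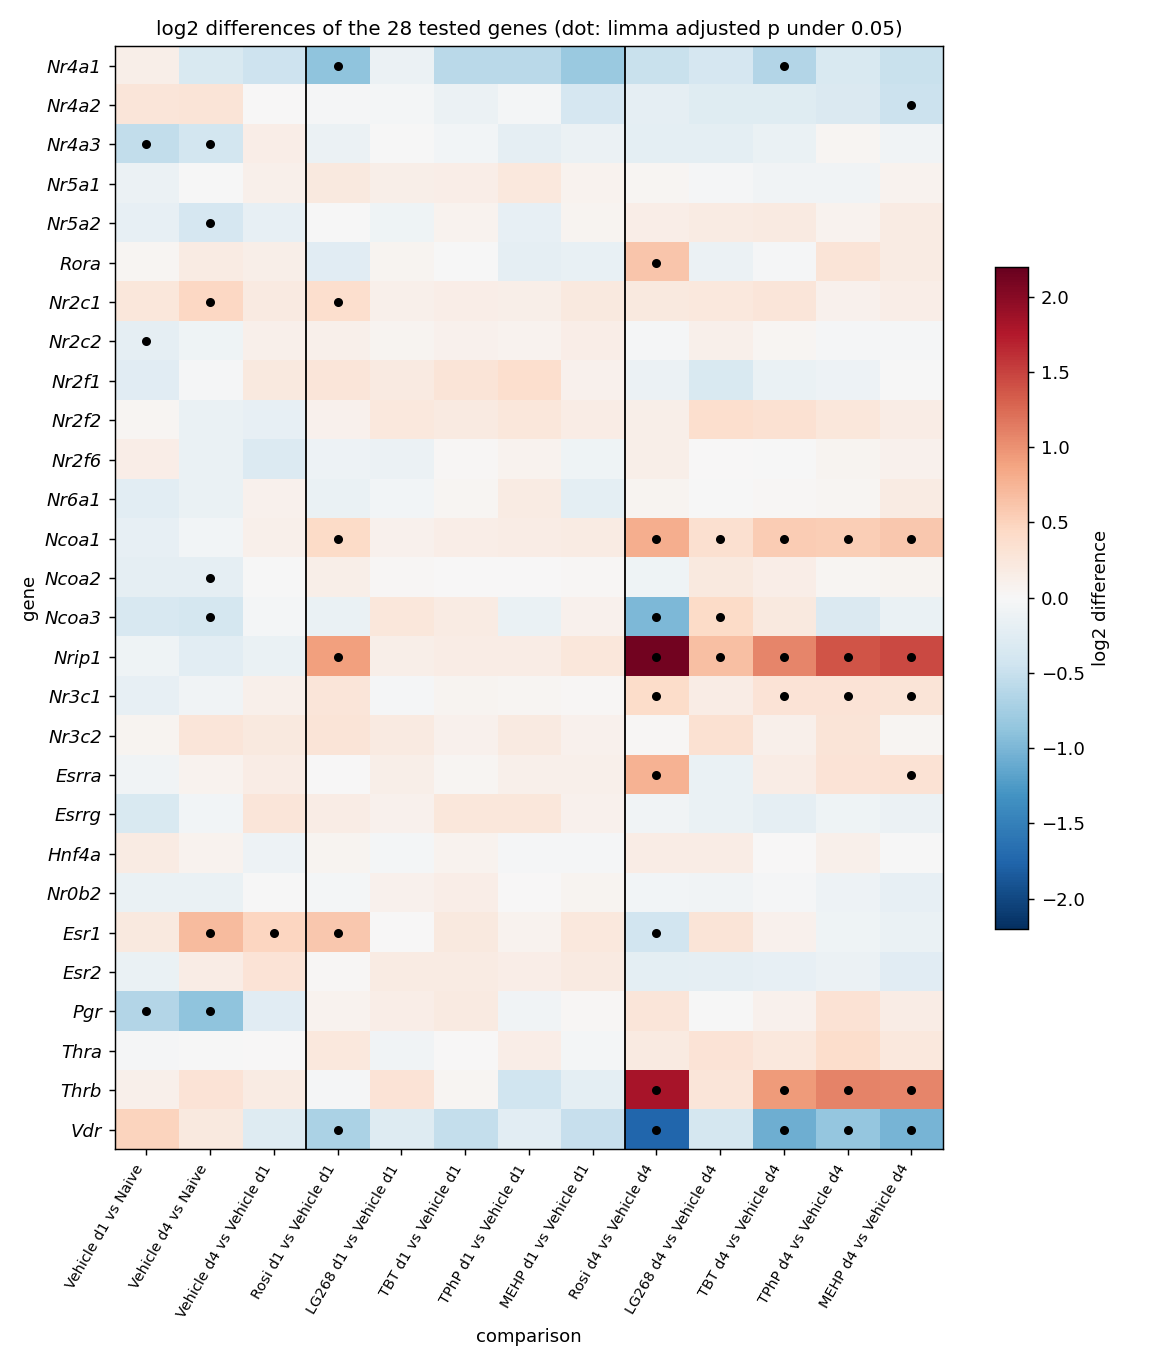
Log2 difference between group means (colour) of the 28 tested genes (rows) in 13 comparisons (columns), with vehicle against naive or against its own day 1 on the left, day 1 chemicals in the middle and day 4 chemicals on the right. Dots mark adjusted p under 0.05. Nrip1 and Ncoa1 are red with a dot in all 5 day 4 columns, Thrb in 4, and Vdr is blue with a dot in 4.

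Nrip1 (RIP140) is a coregulator that represses genes of fat burning in adipocytes, and had the largest difference of the 28 with every chemical at day 4. Its levels at day 4 were 9.68, 9.12, 9.62 and 9.70 with Rosi, 8.05, 7.87, 8.21 and 8.16 with LG268, 8.19, 8.39, 8.78 and 8.58 with TBT, 8.66, 8.24, 9.23 and 9.05 with TPhP and 8.47, 8.51, 9.33 and 9.11 with MEHP, against 7.14, 7.19, 7.57 and 7.72 with vehicle. In each chemical group every array lay above every vehicle array. The log2 difference was 2.12 ± 0.16 (adjusted p = 2.63e-14) with Rosi, which is 4.36-fold. It was 1.45 ± 0.16 (adjusted p = 4.17e-09) with MEHP, 1.39 ± 0.16 (adjusted p = 1.28e-08) with TPhP and 1.08 ± 0.16 (adjusted p = 3.01e-06) with TBT. LG268 gave 0.67 ± 0.16 (adjusted p = 0.00613), a call lost without pool 12 (adjusted p = 0.0638). Nrip1 was also the largest rise at day 1 with Rosi, with levels of 8.32, 8.45, 8.48 and 8.54 against 7.61, 7.32, 7.54 and 7.70 with vehicle and a difference of 0.90 ± 0.16 (adjusted p = 9.8e-05). The other chemicals gave day 1 differences of 0.13 (LG268), 0.16 (TBT), 0.16 (TPhP) and 0.26 (MEHP), none of them called. Naive cultures read 7.71, 7.71, 7.53 and 7.58, and vehicle cultures were not called against them on either day, with -0.23 ± 0.16 (adjusted p = 0.302) at day 4.

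The promoter windows of Nrip1 are shown because it had the largest rise of the genes described. Each window, from RefSeq on GRCm38.p6, runs from 250 bases before to 50 after an annotated start. Capitals mark matches on either strand, overlapping ones included, to AGGTCA (the half-site of many nuclear receptors), AGAACA (the half-site of the glucocorticoid element), TATAAA (the TATA box) and GGGCGG (the GC box of Sp1). Of 32841 mouse promoter windows in that table, 16.3% hold AGGTCA, 19% AGAACA, 13.6% TATAAA and 35.7% GGGCGG. The first Nrip1 window is chr16:76373000-76373299 and the other chr16:76373778-76374077, both on the minus strand.
Nrip1, CpG-rich start: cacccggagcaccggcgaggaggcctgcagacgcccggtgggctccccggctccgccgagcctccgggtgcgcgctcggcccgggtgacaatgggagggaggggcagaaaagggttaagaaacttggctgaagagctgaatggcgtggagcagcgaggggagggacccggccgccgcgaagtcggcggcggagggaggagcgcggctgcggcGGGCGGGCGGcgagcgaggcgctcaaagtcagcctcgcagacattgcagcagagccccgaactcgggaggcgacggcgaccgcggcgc
Nrip1, other start: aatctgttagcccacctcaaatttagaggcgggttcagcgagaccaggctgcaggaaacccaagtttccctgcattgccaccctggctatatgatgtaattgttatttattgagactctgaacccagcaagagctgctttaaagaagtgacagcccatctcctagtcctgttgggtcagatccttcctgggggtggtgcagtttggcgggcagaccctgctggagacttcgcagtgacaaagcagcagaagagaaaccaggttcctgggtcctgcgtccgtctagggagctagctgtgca
The first holds 40 CpG and overlapping GC boxes, and the other holds 6 CpG and none of the 4 motifs. The perfect direct repeat of AGGTCA spaced by 1 base (DR1) was in 0.0396% of all windows and in none of those of the 29 genes described here that the table lists.

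**Figure D2:**
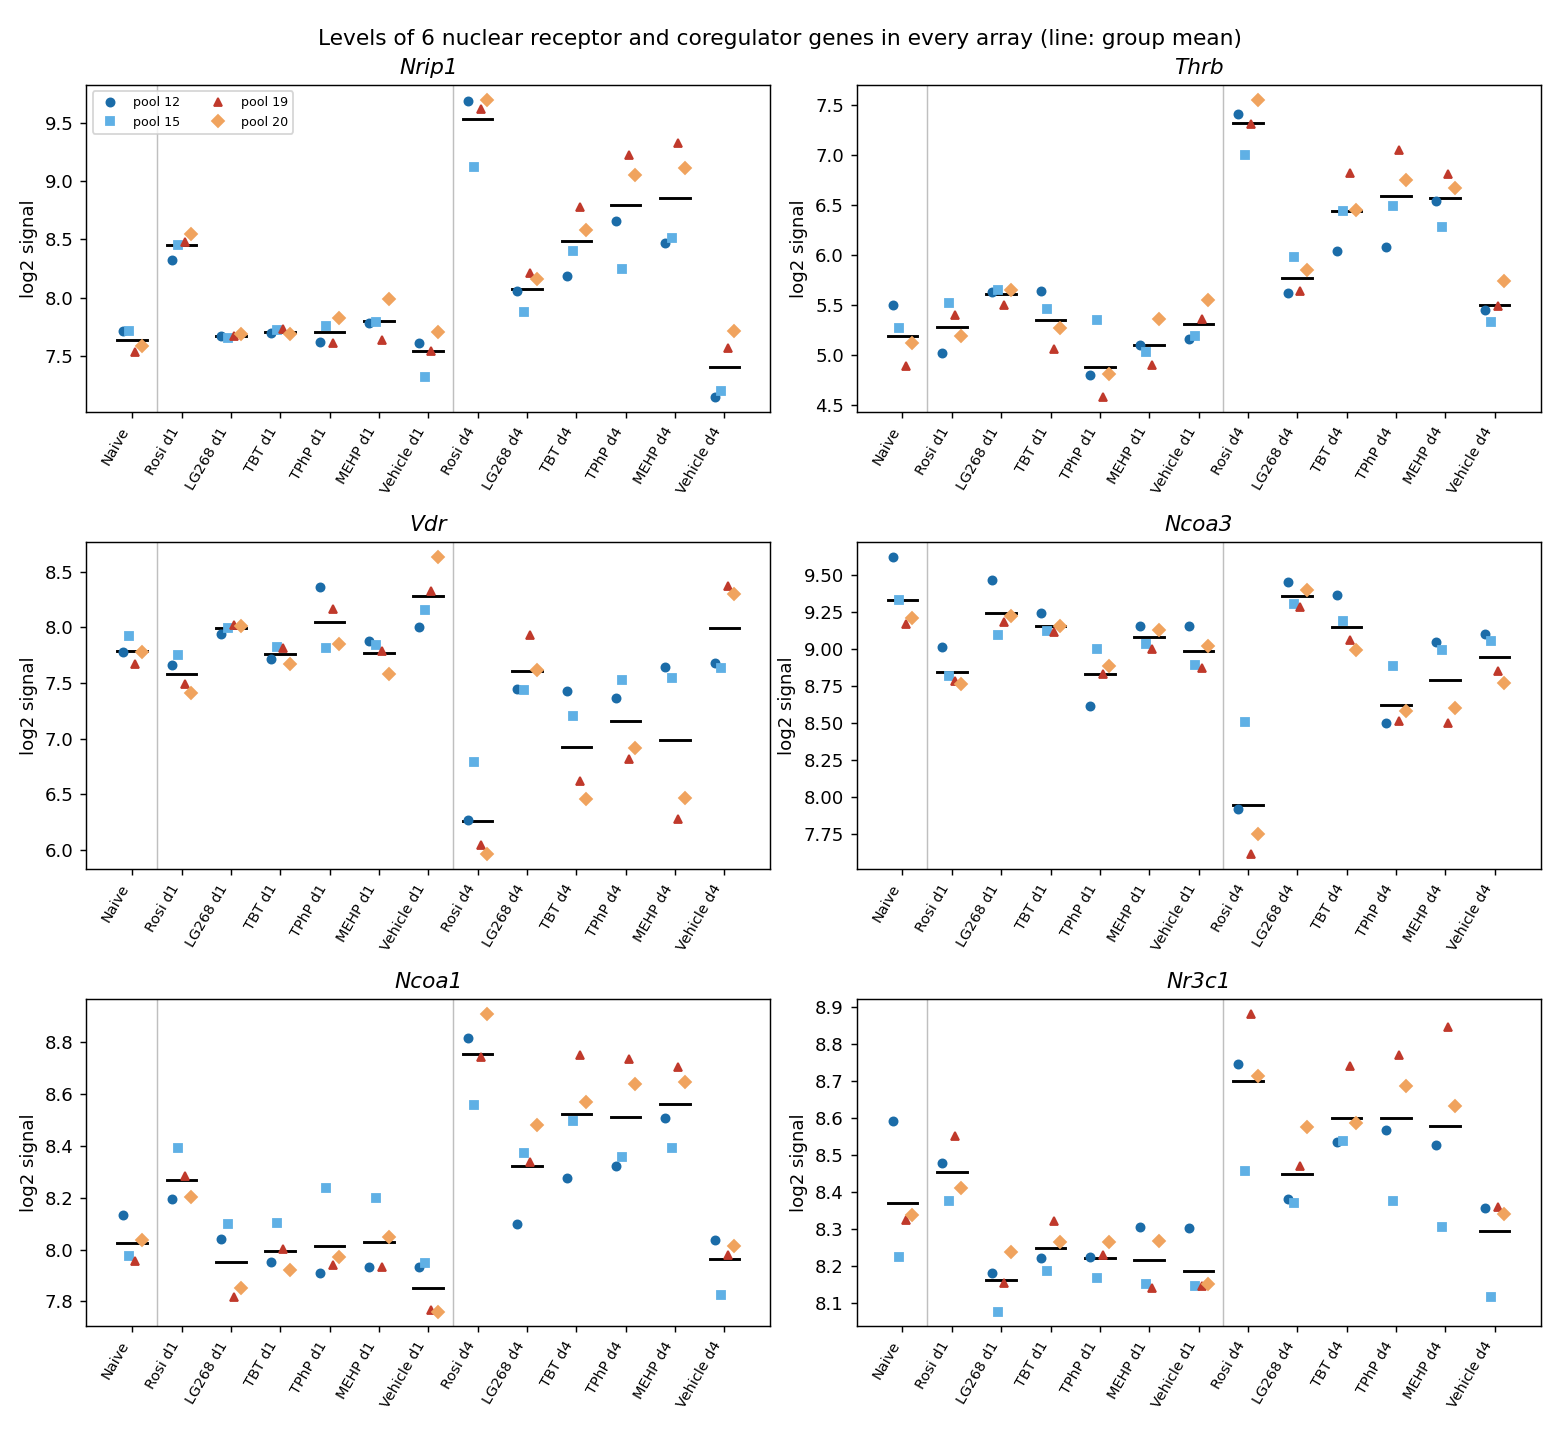
Log2 signal of 6 genes (panels) in each array, with groups along the horizontal axis (naive first, then day 1, then day 4, chemicals left of vehicle), 1 symbol per pool and a black line at the group mean. Rosi day 4 arrays of Nrip1 lie between 9.12 and 9.70, where of the other groups only the pool 19 arrays of TPhP (9.23) and MEHP (9.33) at day 4 reach, and Vdr at day 4 splits by pool under TBT, TPhP and MEHP.

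Among the p160 coactivators, Ncoa1 (SRC-1) rose with all chemicals at day 4, Ncoa3 (SRC-3) moved in opposite directions with Rosi and LG268, and Ncoa2 (SRC-2) was called with none of them against vehicle. Ncoa1 read 8.82, 8.56, 8.74 and 8.91 with Rosi, 8.10, 8.37, 8.34 and 8.48 with LG268, 8.28, 8.50, 8.75 and 8.57 with TBT, 8.32, 8.36, 8.74 and 8.64 with TPhP and 8.51, 8.39, 8.70 and 8.65 with MEHP, against 8.04, 7.83, 7.98 and 8.02 with vehicle. No array of any chemical group was below the highest vehicle array. The differences were 0.79 ± 0.10 (adjusted p = 8.17e-09) with Rosi, 0.60 ± 0.10 (adjusted p = 1.15e-05) with MEHP, 0.56 ± 0.10 (adjusted p = 5.55e-05) with TBT and 0.55 ± 0.10 (adjusted p = 5.78e-05) with TPhP. With LG268 it was 0.36 ± 0.10 (adjusted p = 0.0199), lost without pool 15 (adjusted p = 0.138), without pool 19 (0.0919) and without pool 20 (0.192). Ncoa1 had also risen at day 1 with Rosi, by 0.42 ± 0.10 (adjusted p = 0.00413), a call lost without pool 19 (adjusted p = 0.066) and without pool 20 (0.084).

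Ncoa3 was 7.92, 8.51, 7.62 and 7.75 with Rosi at day 4 and 9.45, 9.30, 9.28 and 9.40 with LG268, against 9.10, 9.05, 8.85 and 8.77 with vehicle. Every Rosi array lay below, and every LG268 array above, the vehicle arrays. The difference was -0.99 ± 0.13 (adjusted p = 2.4e-08) with Rosi, about 0.502 of the vehicle signal on the linear scale. With LG268 it was 0.42 ± 0.13 (adjusted p = 0.0451), lost without pool 12 (adjusted p = 0.0598), without pool 19 (0.151) and without pool 20 (0.33). Set directly against each other, LG268 exceeded Rosi by 1.41 ± 0.13 (adjusted p = 6.34e-12), TBT exceeded Rosi by 1.20 ± 0.13 (adjusted p = 1.44e-09), MEHP by 0.84 ± 0.13 (adjusted p = 1.1e-05) and TPhP by 0.67 ± 0.13 (adjusted p = 0.000147). TBT and MEHP were not called against vehicle (0.21 and -0.15), and TPhP at -0.32 ± 0.13 (adjusted p = 0.0804) was called only with the pool as a block (adjusted p = 0.0328). Ncoa3 was also lower in vehicle than in naive cultures, with 9.10, 9.05, 8.85 and 8.77 in vehicle day 4 cultures against 9.62, 9.33, 9.17 and 9.21 in naive ones, a difference of -0.39 ± 0.13 (adjusted p = 0.0214) that was lost without pool 12 (adjusted p = 0.0609), without pool 19 (0.069) and without pool 20 (0.134). At day 1 of vehicle it was -0.35 ± 0.13 (adjusted p = 0.0588), and with the pool as a block the adjusted p was 0.022. Ncoa2 differed by -0.20 ± 0.08 (adjusted p = 0.0484) in vehicle day 4 against naive, lost without pool 12 (adjusted p = 0.137), without pool 15 (0.169), without pool 19 (0.12) and without pool 20 (0.0883). It was higher with LG268 than with Rosi at day 4, by 0.30 ± 0.08 (adjusted p = 0.00161), lost without pool 20 (adjusted p = 0.0722). TBT exceeded Rosi by 0.23 ± 0.08 (adjusted p = 0.0163), lost without pool 19 (adjusted p = 0.0549) and without pool 20 (0.206).

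Of the receptors, Thrb (thyroid hormone receptor β, the isoform that carries much of the hormone's metabolic action in liver) rose most. At day 4 it read 7.41, 6.99, 7.30 and 7.55 with Rosi, 6.04, 6.44, 6.82 and 6.45 with TBT, 6.08, 6.49, 7.04 and 6.75 with TPhP and 6.54, 6.28, 6.81 and 6.67 with MEHP, against 5.45, 5.33, 5.49 and 5.74 with vehicle. None of these chemical arrays overlapped the vehicle arrays. The difference was 1.81 ± 0.17 (adjusted p = 7.03e-12) with Rosi (3.51-fold), 1.09 ± 0.17 (adjusted p = 5.74e-06) with TPhP, 1.07 ± 0.17 (adjusted p = 5.66e-06) with MEHP and 0.93 ± 0.17 (adjusted p = 8.48e-05) with TBT. LG268 arrays were 5.62, 5.98, 5.64 and 5.85, overlapping vehicle, with 0.27 ± 0.17 (adjusted p = 0.391). TBT exceeded LG268 by 0.66 ± 0.17 (adjusted p = 0.021), lost without pool 19 (adjusted p = 0.356) and without pool 20 (0.283). Thrb was not called at day 1, when Rosi read 5.02, 5.52, 5.40 and 5.19 against 5.16, 5.19, 5.36 and 5.55 with vehicle and gave -0.03 ± 0.17 (adjusted p = 0.959). TPhP at day 1 gave -0.43 ± 0.17 (adjusted p = 0.694). The related Thra, which encodes the α receptor and is the main form in bone, was called in no comparison with vehicle or naive, and its day 4 differences lay between 0.20 with Rosi and 0.39 ± 0.15 (adjusted p = 0.0714) with TPhP, where the adjusted p with the pool as a block was 0.0376.

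Both annotated starts of Thrb are shown because the effect of Rosi on it differed most between days. They lie at chr14:17660710-17661009 and chr14:17981394-17981693, plus strand, and the array does not say which was used.
Thrb, upstream start: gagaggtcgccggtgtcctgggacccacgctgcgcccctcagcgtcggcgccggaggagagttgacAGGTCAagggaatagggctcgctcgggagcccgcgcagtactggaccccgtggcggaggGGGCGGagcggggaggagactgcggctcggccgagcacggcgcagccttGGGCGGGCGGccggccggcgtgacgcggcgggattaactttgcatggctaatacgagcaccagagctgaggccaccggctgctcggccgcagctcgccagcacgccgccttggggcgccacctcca
Thrb, downstream start: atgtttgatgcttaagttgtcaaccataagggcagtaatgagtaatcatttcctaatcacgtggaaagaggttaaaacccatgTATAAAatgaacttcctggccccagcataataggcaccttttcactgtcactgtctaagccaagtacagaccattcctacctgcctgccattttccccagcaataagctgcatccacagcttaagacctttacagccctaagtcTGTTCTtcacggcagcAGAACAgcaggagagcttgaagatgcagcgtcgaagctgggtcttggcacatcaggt
The upstream window has a GC content of 72.7%, 37 CpG, 1 AGGTCA half-site and 3 GC boxes. The downstream window has a GC content of 46%, 4 CpG, a TATA box and 2 AGAACA half-sites, 1 on each strand.

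Of 8 listed genes of thyroid hormone handling and response, 5 were tested, and 2 rose and 1 fell with Rosi at day 4, where 49.1% of all genes were called. Thrsp, a lipogenic gene that thyroid hormone induces in liver and that marks fat cells, rose by 4.41 (adjusted p = 1.27e-06) with Rosi, 4.32 (adjusted p = 1.55e-05) with TBT, 4.19 (adjusted p = 1.96e-05) with TPhP and 4.45 (adjusted p = 5.54e-06) with MEHP. LG268 gave 2.88 (adjusted p = 0.00756), lost without pool 15 (adjusted p = 0.0661) and without pool 19 (0.0738). Slc16a10, a transporter of aromatic amino acids and thyroid hormone, rose by 0.66 with Rosi, 0.48 with LG268, 0.67 with TBT and 0.47 with MEHP. Dio3, the deiodinase that inactivates the hormone, differed by -0.87 (adjusted p = 0.00907) with Rosi, lost without pool 19 (adjusted p = 0.158) and without pool 20 (0.123), and by -0.92 (adjusted p = 0.0135) with MEHP, lost without pool 19 (adjusted p = 0.26) and without pool 20 (0.35). Adipocyte markers rose in the same groups, and their part in the Thrb difference was not tested.

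Vdr, the vitamin D receptor, fell with 4 of the 5 chemicals at day 4. It read 6.26, 6.79, 6.04 and 5.96 with Rosi, 7.43, 7.21, 6.62 and 6.45 with TBT, 7.37, 7.53, 6.81 and 6.91 with TPhP and 7.64, 7.55, 6.28 and 6.47 with MEHP, against 7.68, 7.64, 8.37 and 8.30 with vehicle. MEHP and vehicle arrays overlapped, while the other 3 groups lay wholly below vehicle. The difference was -1.74 ± 0.22 (adjusted p = 1.57e-08) with Rosi and -1.07 ± 0.22 (adjusted p = 0.000506) with TBT. It was -1.02 ± 0.22 (adjusted p = 0.000605) with MEHP, lost without pool 19 (adjusted p = 0.104) and without pool 20 (0.0674), and -0.65 without pool 19. With TPhP it was -0.85 ± 0.22 (adjusted p = 0.00523), lost without pool 19 (adjusted p = 0.171) and without pool 20 (0.12). LG268 arrays read 7.45, 7.44, 7.93 and 7.62, with -0.39 ± 0.22 (adjusted p = 0.335). At day 1, Rosi gave 7.67, 7.75, 7.49 and 7.41 against 8.00, 8.15, 8.33 and 8.64 with vehicle and -0.70 ± 0.22 (adjusted p = 0.0457), lost without pool 15 (adjusted p = 0.0625), without pool 19 (0.194) and without pool 20 (0.45).

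The fall in Vdr was split by pool. The within-pool difference from vehicle with MEHP was -0.04, -0.09, -2.10 and -1.84 in pools 12, 15, 19 and 20. With TBT it was -0.25, -0.43, -1.76 and -1.85, and with TPhP -0.32, -0.11, -1.56 and -1.39. Pools 19 and 20 were thus 1.39 or more lower on the log2 scale with all 3 chemicals, and pools 12 and 15 no more than 0.43 lower. With Rosi all pools were low, at -1.42, -0.85, -2.34 and -2.35. Vehicle itself differed, with 7.68 and 7.64 in pools 12 and 15 against 8.37 and 8.30 in pools 19 and 20. The mean within-pool difference of the 7 osteoblast markers was -0.73, -1.16, -2.16 and -2.41 with MEHP, -0.50, -0.88, -1.77 and -2.21 with TBT, 1.10, -0.94, -1.35 and -2.21 with TPhP and -0.68, -1.70, -2.07 and -2.76 with Rosi, also lowest in pools 19 and 20. The osteoclast markers differed by -0.21, -0.62, -1.31 and -1.46 with MEHP and -0.66, -0.91, -1.37 and -1.56 with TBT. With TPhP they differed by -0.90, -0.89, -1.29 and -1.35, a smaller split. Smooth muscle markers with MEHP differed by -0.10, -0.63, -1.64 and -1.38, and stromal markers by 0.29, 0.12, -0.46 and -0.37. Endothelial markers with MEHP did not split this way, at 1.08, 0.62, 0.84 and 1.42. With LG268, where Vdr was not called, osteoblast markers also split, at 0.04, -0.47, -1.09 and -1.48. The part of any cell type in the Vdr values was not tested. For Nrip1 the within-pool differences with MEHP were 1.32, 1.31, 1.76 and 1.39, and for Thrb 1.09, 0.95, 1.32 and 0.94. The Vdr differences with MEHP were also all of 1 sign, but those of Nrip1 and Thrb were closer in size between pools.

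**Figure D3:**
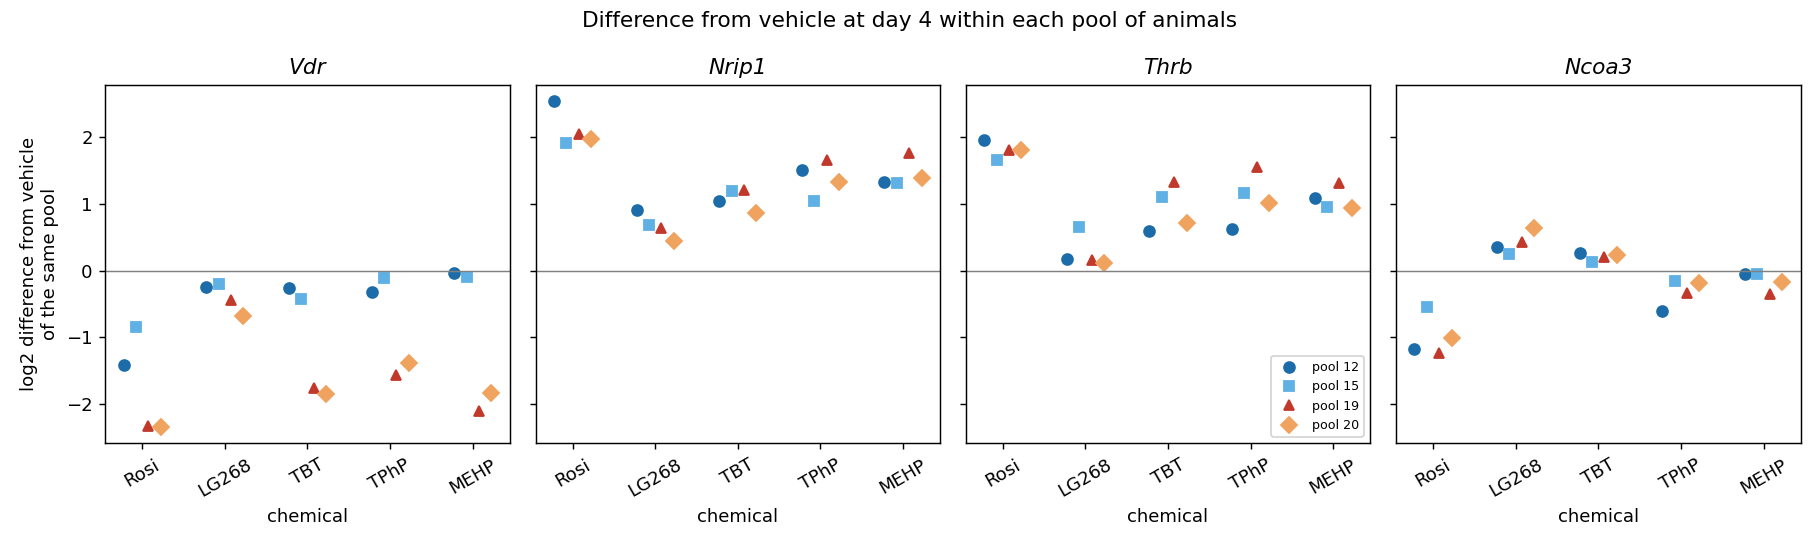
Log2 difference from the vehicle array of the same pool at day 4 (vertical axis) for 4 genes (panels) and 5 chemicals (horizontal axis), 1 symbol per pool. With MEHP the Vdr points of pools 19 and 20 lie at -2.10 and -1.84 and those of pools 12 and 15 at -0.04 and -0.09, while Nrip1 and Thrb points are above 0 in every pool.

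The promoter of Vdr, at chr15:97908247-97908546 on the minus strand, is shown as that of the receptor that fell most.
Vdr: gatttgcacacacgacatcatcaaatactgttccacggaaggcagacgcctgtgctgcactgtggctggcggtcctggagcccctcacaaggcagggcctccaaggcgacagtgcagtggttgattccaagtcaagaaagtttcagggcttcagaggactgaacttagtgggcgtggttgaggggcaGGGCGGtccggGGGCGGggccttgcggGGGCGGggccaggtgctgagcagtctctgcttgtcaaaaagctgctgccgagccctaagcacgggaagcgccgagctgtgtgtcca
It holds 3 GC boxes and 15 CpG, and none of the other 3 motifs. Of 8 genes of vitamin D handling and response, 3 were tested. Tnfsf11 (RANKL, the osteoclast-inducing cytokine that vitamin D raises in osteoblasts) differed by -1.02 (adjusted p = 0.000754) with Rosi at day 4, and Lrp5, a Wnt coreceptor of bone, rose by 0.65 (adjusted p = 0.000212) with LG268 and 0.67 (adjusted p = 3.22e-05) with TBT. Cyp24a1, the enzyme that degrades vitamin D and is its most responsive target, was called in none of the comparisons with vehicle at day 4.

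Nr3c1 encodes the glucocorticoid receptor, whose ligand dexamethasone was part of the osteoinductive medium. It read 8.75, 8.46, 8.88 and 8.72 with Rosi at day 4, against 8.36, 8.12, 8.36 and 8.34 with vehicle, a difference of 0.41 ± 0.09 (adjusted p = 0.000192) with no overlap between the groups. TBT, TPhP and MEHP gave 0.31 ± 0.09 (adjusted p = 0.012), 0.31 ± 0.09 (adjusted p = 0.0119) and 0.28 ± 0.09 (adjusted p = 0.0165). The TBT call was lost without pool 19 (adjusted p = 0.0707) and without pool 20 (0.0847), the TPhP call without pool 19 (adjusted p = 0.105) and without pool 20 (0.138) and the MEHP call without pool 19 (adjusted p = 0.185) and without pool 20 (0.145). At day 1 Rosi gave 0.27 ± 0.09 (adjusted p = 0.0618), called with the pool as a block (adjusted p = 0.00989). Vehicle against naive was -0.18 ± 0.09 (adjusted p = 0.164) at day 1 and -0.08 ± 0.09 (adjusted p = 0.573) at day 4. Nr3c2, the mineralocorticoid receptor, was called against neither vehicle nor naive. Its second probe set averaged 2.12 over all arrays, below the filter.

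Of 12 tested genes of glucocorticoid handling and response, 6 rose and none fell in vehicle day 1 against naive, beside 12.9% higher and 4.86% lower over all genes. In vehicle day 4 against naive 7 of the 12 rose and none fell, beside 17.4% and 11.5%. As the list was chosen with earlier results of these data known, these shares are no test of glucocorticoid genes as a set. Per1, a clock gene, rose by 1.26 (adjusted p = 1.81e-10) at day 1, Fkbp5, a chaperone that restrains the receptor, by 2.00 (adjusted p = 1.68e-08), and Tsc22d3 (GILZ) by 1.06 (adjusted p = 3.93e-06). At day 4, 3 of the 12 rose and 1 fell with Rosi against vehicle (5 rose without pool 12, and 3 fell without pool 15), beside 21.3% higher and 27.7% lower over all genes. Zbtb16, a transcription factor, rose by 1.57 (adjusted p = 3.18e-05) and Klf9 by 0.67 (adjusted p = 0.000207), while Hsd11b2, which inactivates corticosterone, fell by 0.64 on the log2 scale (adjusted p = 0.00278). Hsd11b1, which regenerates active glucocorticoid, rose by 0.92 (adjusted p = 2.75e-05) with TBT and 0.66 (adjusted p = 0.00185) with TPhP.

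Among the sex steroid receptors, Esr1 (estrogen receptor α) was higher with Rosi at day 1 and lower at day 4. At day 1 it read 7.00, 7.09, 6.77 and 6.79 with Rosi against 6.49, 6.57, 6.10 and 6.16 with vehicle, without overlap, and differed by 0.59 ± 0.15 (adjusted p = 0.00999), lost without pool 19 (adjusted p = 0.115) and without pool 20 (0.0854). At day 4 it read 6.65, 6.17, 6.33 and 6.32 with Rosi against 6.39, 6.70, 7.05 and 7.05 with vehicle, with pool 12 higher and the other 3 pools lower. The difference was -0.43 ± 0.15 (adjusted p = 0.0176), lost without pool 15 (adjusted p = 0.0743), without pool 19 (0.174) and without pool 20 (0.147), and -0.66 without pool 12. Vehicle cultures had more Esr1 at day 4 than naive ones (6.61, 6.11, 5.82 and 5.89), by 0.69 ± 0.15 (adjusted p = 0.000569), lost without pool 19 (adjusted p = 0.0652). They also had more than at day 1, by 0.47 ± 0.15 (adjusted p = 0.0347), lost without pool 19 (adjusted p = 0.395) and without pool 20 (0.292) and 0.31 without pool 19. Pool 12 went the other way, with 6.39 in vehicle day 4 against 6.61 in naive and 6.49 in vehicle day 1 cultures. With a limma fit of only the arrays compared, neither rise was called (adjusted p = 0.0543 and 0.15). Only this gene was called in vehicle day 4 against vehicle day 1 (background 12.9%). Against Rosi at day 4, LG268 was higher by 0.71 ± 0.15 (adjusted p = 0.000134) and TBT by 0.53 ± 0.15 (adjusted p = 0.00508), the TBT call lost without pool 15 (adjusted p = 0.0731).

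Pgr, the progesterone receptor, was near background, above 4.05 on all 4 naive arrays, 1 vehicle day 1 array and 0 vehicle day 4 arrays. It read 3.72, 3.91, 3.85 and 3.60 in vehicle day 4 cultures against 4.77, 4.77, 4.62 and 4.46 in naive ones, and fell by 0.88 ± 0.15 on the log2 scale (adjusted p = 1.94e-05). At day 1 of vehicle it read 4.46, 4.03, 3.83 and 3.75 and differed from naive by -0.64 ± 0.15 (adjusted p = 0.00233), lost without pool 19 (adjusted p = 0.0569). Esr2 (estrogen receptor β) was called against neither vehicle nor naive. Of 11 listed genes of estrogen and androgen handling, 6 were tested, of which 2 rose and 2 fell with Rosi at day 4, again beside 49.1% of all genes. Hsd17b12 and Hsd17b4, enzymes that also act in fatty acid elongation and peroxisomal β-oxidation, rose with Rosi at day 4 by 1.58 (adjusted p = 2.07e-13) and 1.47 (adjusted p = 3.27e-14), and Hsd17b11 fell by 0.59 on the log2 scale.

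Esrra and Rora rose with Rosi at day 4, and neither was called at day 1. Esrra (ERRα), an orphan receptor that drives mitochondrial genes, read 7.41, 7.16, 7.48 and 7.47 with Rosi against 6.83, 6.71, 6.49 and 6.41 with vehicle, without overlap, a difference of 0.77 ± 0.11 (adjusted p = 1.35e-07). MEHP gave 0.32 ± 0.11 (adjusted p = 0.0289), lost without pool 19 (adjusted p = 0.353) and without pool 20 (0.282), and 0.20 without pool 19. TPhP gave 0.30 ± 0.11 (adjusted p = 0.0534), called with the pool as a block (adjusted p = 0.0348). The within-pool values with MEHP were -0.01, 0.05, 0.68 and 0.55, so its rise too lay in pools 19 and 20. Rora (RORα), a receptor of lipid and clock genes, read 6.92, 6.65, 7.13 and 6.96 with Rosi against 6.34, 6.00, 6.45 and 6.45 with vehicle, a difference of 0.61 ± 0.14 (adjusted p = 0.000394) with no overlap. The coactivator of ERRα and PPARs, Ppargc1a (PGC-1α), rose by 4.65 (adjusted p = 5.39e-16) with Rosi, 2.41 with TBT, 2.84 with TPhP and 2.85 with MEHP at day 4. Esrrg was called against neither vehicle nor naive.

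The NR4A receptors are orphan receptors induced within hours by many stimuli. Nr4a1 (Nur77) read 6.04, 6.27, 6.05 and 6.28 with Rosi at day 1 against 7.26, 7.13, 6.74 and 7.03 with vehicle, without overlap, and differed by -0.88 ± 0.22 (adjusted p = 0.00653), lost without pool 15 (adjusted p = 0.0664) and without pool 20 (0.0586). MEHP at day 1 read 6.19, 6.48, 5.98 and 6.27 and differed by -0.81 ± 0.22 (adjusted p = 0.0898), called with the pool as a block (adjusted p = 0.0154). At day 4, TBT read 6.19, 5.98, 5.84 and 5.70 against 6.10, 6.70, 6.62 and 6.90 with vehicle and differed by -0.65 ± 0.22 (adjusted p = 0.0308), lost without pool 15 (adjusted p = 0.145), without pool 19 (0.122) and without pool 20 (0.297). Rosi and MEHP at day 4 gave -0.49 ± 0.22 (adjusted p = 0.0636) and -0.50 ± 0.22 (adjusted p = 0.0992), both called with the pool as a block (adjusted p = 0.0266 and 0.0417). Nr4a2 (Nurr1) read 5.87, 5.72, 5.46 and 5.38 with MEHP at day 4 against 5.62, 6.05, 6.14 and 6.53 with vehicle and differed by -0.47 ± 0.15 (adjusted p = 0.0129), lost without pool 19 (adjusted p = 0.129) and without pool 20 (0.388), with differences of -0.72 without pool 12 and -0.25 without pool 20. Nr4a3 (NOR1) was below 4.05 on every vehicle day 1 array (3.89, 4.04, 3.71 and 4.02) and above it on every naive array (4.91, 4.64, 4.13 and 4.13), a difference of -0.54 ± 0.15 (adjusted p = 0.00712). The same difference at day 4 was -0.40 ± 0.15 (adjusted p = 0.0349), lost without pool 15 (adjusted p = 0.188), without pool 19 (0.108) and without pool 20 (0.0789). Of 15 tested immediate early genes, which share these stimuli, 2 rose and 3 fell in vehicle day 1 against naive (1 of each without pool 19, and 0 rose and 1 fell without pool 20). Over all genes 12.9% rose and 4.86% fell there. With Rosi at day 1, 2 of the 15 fell, beside 3.08% of all genes. These were Fosb at -1.03 (adjusted p = 0.000682) and Klf2 at -0.65 (adjusted p = 0.00797), the second lost without pool 20 (adjusted p = 0.212). In vehicle day 4 against naive 1 of the 15 rose and 5 fell (3 fell without pool 19, 2 without pool 20), beside 17.4% and 11.5%. With Rosi at day 4, 1 rose and 5 fell (4 fell without pool 19 or 20), beside 21.3% and 27.7%. With TBT at day 4, 2 fell (4 without pool 12, 1 without pool 19 or 20), beside 9.42%.

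In vehicle against naive cultures, 3 of the 28 genes fell at day 1 (background 17.7%, 12.9% higher and 4.86% lower), and 2 rose and 5 fell at day 4 (background 28.9%, 17.4% higher and 11.5% lower). Without pool 19 the counts were 1 at day 1 and 2 at day 4, and without pool 20 the day 4 count was 4. Calls over all genes fell too. Without pool 19 they were 926 beside 2642 at day 1 and 2464 beside 4308 at day 4, and without pool 20 they were 2433 at day 4. Markers moved in the same day 4 comparison: 4 of 4 B cell and 3 of 5 smooth muscle markers fell, and 4 of 5 osteoclast and 3 of 7 osteoblast markers rose (2 osteoblast markers without pool 15, 19 or 20), and their part in these differences was not tested. Of 6 adipocyte markers 2 rose at day 4 (6 without pool 12, and 1 without pool 15 or 19). At day 1, 2 B cell markers fell (4 without pool 12, 1 without pool 19 and 0 without pool 20). Beside those already described, Nr2c2 (TR4), an orphan receptor, differed by -0.19 ± 0.06 (adjusted p = 0.0242) at day 1, lost without pool 12 (adjusted p = 0.0922), without pool 19 (0.313) and without pool 20 (0.139). Its partner Nr2c1 (TR2) read 7.63, 7.75, 7.85 and 7.85 in vehicle day 4 cultures against 7.52, 7.47, 7.04 and 7.23 in naive ones and rose by 0.45 ± 0.11 (adjusted p = 0.00127), lost without pool 19 (adjusted p = 0.0898). With Rosi at day 1 Nr2c1 differed from vehicle by 0.37 ± 0.11 (adjusted p = 0.0231), lost without pool 19 (adjusted p = 0.273) and without pool 20 (0.165). Nr5a2, near background, read 3.53, 3.77, 3.67 and 3.68 in vehicle day 4 cultures against 4.03, 3.89, 4.12 and 4.07 in naive ones. It fell by 0.36 on the log2 scale (adjusted p = 0.00425) and is among the 5 genes counted as falling. Both group means, 4.03 and 3.66, were under 4.05, which 2 naive arrays and 0 vehicle day 4 arrays exceeded. Only 5 arrays of the series exceeded it, these 2 among them, so the naive level itself helped Nr5a2 pass the filter. At these levels a change in expression cannot be told from background. Nr2f1, Nr2f2 and Nr2f6 (the COUP-TF family), Nr6a1, Nr5a1, Hnf4a and Nr0b2 were called against neither vehicle nor naive, and Nr2f6 in vehicle day 4 against day 1, at -0.30 ± 0.11 (adjusted p = 0.066), was called with the pool as a block (adjusted p = 0.0242).

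At day 1, none of the 28 genes was called by limma with LG268 (background 0.241%), TBT (0.543%), TPhP (0.215%) or MEHP (0.523%). At an unadjusted p under 0.05 the counts were 0, 3, 3 and 5 in that order. Blocking by pool, or fitting only the arrays compared, gave 0 with LG268, TBT and TPhP and 1 with MEHP. Over all genes these 4 comparisons had 32 to 81 calls.

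The chemicals were then set directly against Rosi on the same day, in 4 comparisons a day that share the Rosi arrays. TBT was dosed at 80 nM and LG268 at the 100 nM of Rosi, and the doses of TPhP and MEHP are not known here. At day 1 Nrip1 was lower than with Rosi in all of them, with differences of -0.78 ± 0.16 (adjusted p = 0.000947) with LG268, -0.74 ± 0.16 (adjusted p = 0.00409) with TBT, -0.75 ± 0.16 (adjusted p = 0.00422) with TPhP and -0.65 ± 0.16 (adjusted p = 0.0188) with MEHP. The TBT call was lost without pool 20 (adjusted p = 0.128), that of TPhP without pool 20 (adjusted p = 0.0744) and that of MEHP without pool 12 (adjusted p = 0.066), without pool 19 (0.159) and without pool 20 (0.149). It was the only 1 of the 28 called with TBT (background 2.61%), TPhP (2.32%) and MEHP (1.88%), whereas 5 were called with LG268 (background 6.99%). With the pool as a block TPhP had 2, Esr1 being called as well at -0.50 (adjusted p = 0.0397). With LG268 the block also called Ncoa3, at 0.40 (adjusted p = 0.0175), against 0.056 without it. Nr4a1 was higher by 0.75 ± 0.22 (adjusted p = 0.0274), lost without pool 15 (adjusted p = 0.235), without pool 19 (0.0924) and without pool 20 (0.0799). Esr1 differed by -0.58 ± 0.15 (adjusted p = 0.0108), lost without pool 15 (adjusted p = 0.0841), without pool 19 (0.0831) and without pool 20 (0.112), Ncoa1 by -0.32 ± 0.10 (adjusted p = 0.0416), lost without pool 15 (adjusted p = 0.086), without pool 19 (0.291) and without pool 20 (0.279), and Nr3c1 by -0.29 ± 0.09 (adjusted p = 0.0376), lost without pool 12 (adjusted p = 0.132), without pool 19 (0.197) and without pool 20 (0.179).

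At day 4, 11 of 28 were called with LG268 against Rosi (background 47.8%), 8 with TBT (38.1%), 5 with TPhP (28.2%) and 6 with MEHP (26.1%). Nrip1 was lower than with Rosi, with differences of -1.46 ± 0.16 (adjusted p = 3.97e-10) with LG268, -1.04 ± 0.16 (adjusted p = 1.3e-06) with TBT, -0.74 ± 0.16 (adjusted p = 0.000534) with TPhP and -0.68 ± 0.16 (adjusted p = 0.0015) with MEHP, the last lost without pool 12 (adjusted p = 0.0702). Thrb was also lower, with differences of -1.54, -0.88, -0.72 and -0.74 in the same order, and so was Esrra, with -0.92, -0.60, -0.47 and -0.45, all called. Vdr was higher by 1.35, 0.67, 0.89 and 0.72, all called, with TBT lost without pool 12 (adjusted p = 0.137) and MEHP without pool 12 (adjusted p = 0.176). Rora differed by -0.73 ± 0.14 (adjusted p = 3.64e-05) with LG268, -0.63 ± 0.14 (adjusted p = 0.000426) with TBT and -0.44 ± 0.14 (adjusted p = 0.02) with MEHP, the last lost without pool 12 (adjusted p = 0.166) and without pool 19 (0.0786). With TPhP it differed by -0.33 ± 0.14 (adjusted p = 0.0786), called with the pool as a block (adjusted p = 0.0337). Nr3c1 with LG268 differed by -0.25 ± 0.09 (adjusted p = 0.0195), lost without pool 12 (adjusted p = 0.129), without pool 19 (0.128) and without pool 20 (0.0602), and Nr3c2 by 0.32 ± 0.13 (adjusted p = 0.0487), lost without pool 12 (adjusted p = 0.098), without pool 15 (0.102) and without pool 20 (0.267). Ncoa1 with LG268 differed by -0.43 ± 0.10 (adjusted p = 0.000321), and with TBT, TPhP and MEHP it was not called against Rosi (-0.23, -0.24 and -0.19). Fitting only the arrays compared gave 0 calls for TPhP and 1 for MEHP against Rosi, in fits of fewer samples. TBT against LG268 gave 1 call at day 4, Thrb (background 3.35%), and 0 at day 1 by limma (background 0%), where 1 of the 28 had an unadjusted p under 0.05, and where blocking by pool and fitting only the arrays compared also gave 0.

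Whether the effect of a chemical changed between days was tested as a difference of differences. With Rosi 8 of the 28 were called (background 30%). The effect on Thrb grew by 1.85 ± 0.24 (adjusted p = 2.3e-07), on Nrip1 by 1.22 ± 0.23 (adjusted p = 5.56e-05) and on Esrra by 0.77 ± 0.16 (adjusted p = 0.000177). The effect on Rora moved by 0.86 ± 0.20 (adjusted p = 0.000931), from lower to higher than vehicle. Its Rosi day 1 mean, 5.92, was the lowest of the 13 groups, though that day's difference from vehicle was not called. The effect on Ncoa1 grew by 0.38 ± 0.14 (adjusted p = 0.038), lost without pool 12 (adjusted p = 0.123), without pool 19 (0.0825) and without pool 20 (0.193). The effect on Esr1 moved by -1.01 ± 0.22 (adjusted p = 0.000329), from higher to lower than vehicle, on Ncoa3 by -0.85 ± 0.19 (adjusted p = 0.000401) and on Vdr by -1.04 ± 0.32 (adjusted p = 0.0108), the last lost without pool 19 (adjusted p = 0.091) and without pool 20 (0.0591). With TPhP (background 4.49%) the effect on Thrb moved up by 1.52 ± 0.24 (adjusted p = 0.000118) and that on Nrip1 by 1.23 ± 0.23 (adjusted p = 0.000674). With MEHP (background 6.36%) they moved up by 1.29 ± 0.24 (adjusted p = 0.000806) and 1.19 ± 0.23 (adjusted p = 0.000927), the last lost without pool 19 (adjusted p = 0.052). With the pool as a block Ncoa1 was called with MEHP too, at 0.42 (adjusted p = 0.0497). With TBT (background 1.77%) Thrb grew by 0.89 ± 0.24 (adjusted p = 0.0422), lost without pool 15 (adjusted p = 0.125), without pool 19 (0.408) and without pool 20 (0.374), and Nrip1 by 0.91 ± 0.23 (adjusted p = 0.0232), lost without pool 12 (adjusted p = 0.0572), without pool 19 (0.184) and without pool 20 (0.239). None was called with LG268 by limma (background 0.0805%), where 3 of the 28 had an unadjusted p under 0.05 and the block gave 0.

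**Figure D4:**
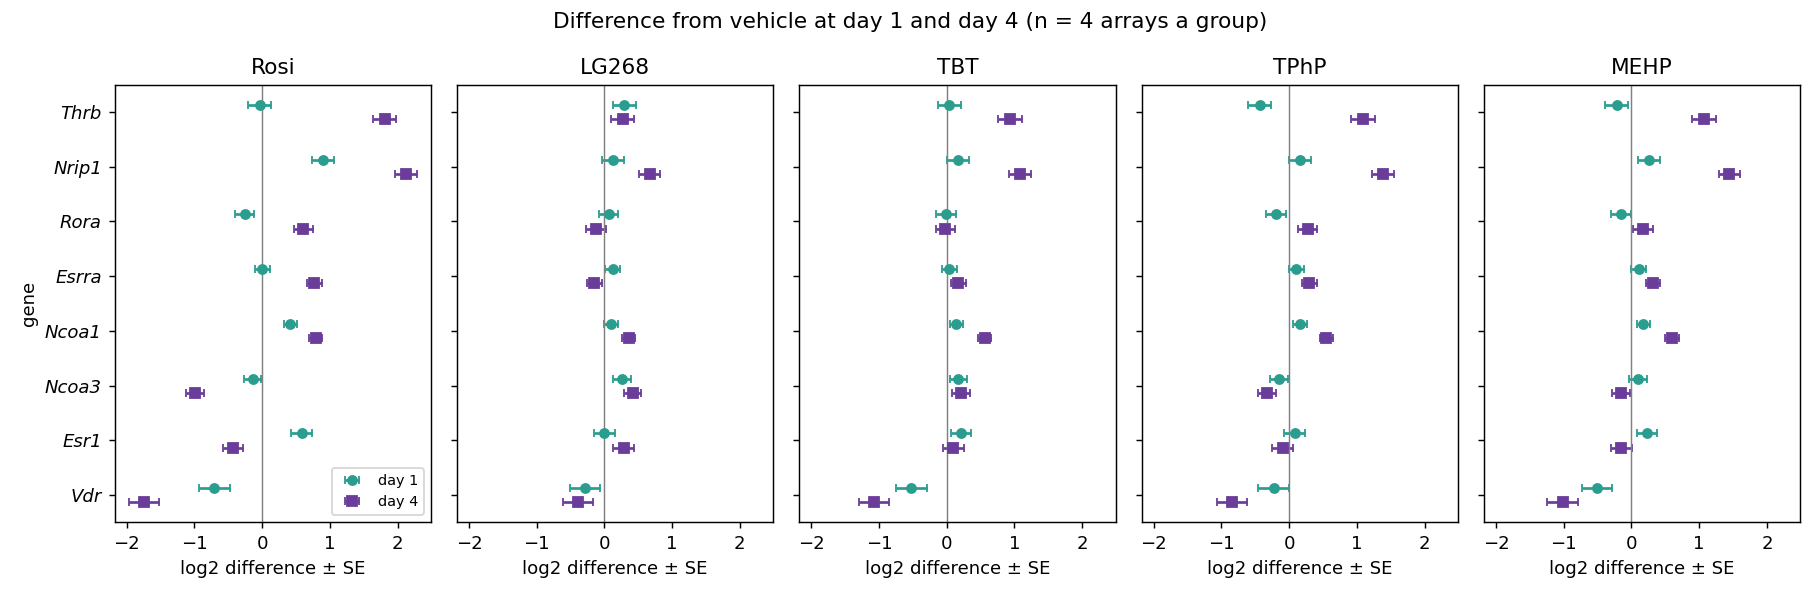
Log2 difference from vehicle with its standard error (horizontal axis) at day 1 (circles) and day 4 (squares) for 8 genes (vertical axis) and 5 chemicals (panels). With Rosi, Thrb is at -0.03 at day 1 and 1.81 at day 4, and Esr1 at 0.59 and -0.43.

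Of the remaining nuclear receptors, 12 of 18 listed were tested, and with Rosi at day 4 9 rose and 2 fell (6 rose without pool 20), beside 21.3% higher and 27.7% lower over all genes. Ppara rose by 3.44 (adjusted p = 8.26e-12), Pparg, the adipocyte master regulator, by 1.24 (adjusted p = 3.46e-10), and Nr1h3 (LXRα) by 1.37 (adjusted p = 3.06e-10). Of the same 12, 5 rose with TBT (3 without pool 20) and with MEHP, beside 10.6% and 12.1% of all genes. With TPhP 7 rose (3 without pool 19, 4 without pool 20) and 1 fell (0 without pool 19 or 20), beside 11% higher and 7.94% lower. With LG268 2 rose (1 without pool 15, 19 or 20), beside 4.21%. Of 24 further coregulators tested, 5 rose and 9 fell with Rosi at day 4, with 5 falls without pool 19 and 4 without pool 20, and the share called was 58.3%, near the 49.1% of all genes. The 3 with the smallest adjusted p were Ppargc1a, given above, Lcor, a ligand-dependent corepressor, at 1.00 (adjusted p = 1.44e-11), and Ppargc1b, a relative of PGC-1α, at 2.15 (adjusted p = 4.96e-11). In vehicle day 4 against naive, 1 of the 24 rose and 8 fell (5 without pool 20, and 0 rose without pool 19 or 20), among them the histone acetyltransferases Ep300 at -0.60 (adjusted p = 3.02e-07) and Crebbp at -0.71 (adjusted p = 8.02e-06), and Pprc1 at -0.63 (adjusted p = 0.000338). The share called there was 37.5%, beside 28.9% of all genes.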

How the data were processed

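Total RNA of 52 cultures was hybridised to Mouse Gene 2.0 ST arrays (Affymetrix). The authors deposited 1 table of log2 signals of 41345 probe sets. Per the submitters' processing notes the tools were oligo and R 3.3.1; the normalization method is not given in the sources used here. Array medians were 3.97 to 4.15, and no pair of arrays was identical (correlations 0.937 to 0.992). By GEO's platform annotation 23521 probe sets had 1 gene symbol, 1814 several and 16010 none. The highest-mean probe set stood for each of 22180 genes. Genes above 4.05, the table's median, on 4 or more arrays were kept, which left 14911 and set aside 7269. limma 3.58.1 in R 4.3.3 fitted 13 group means on 39 residual degrees of freedom with no block, with Benjamini-Hochberg adjustment over all 14911 genes and a threshold of 0.05. The script was tested on simulated data. Arrays number 4 a group, which limits precision.

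Per the labels, marrow of 2 to 4 animals made each pool and each pool was an experiment, so arrays of 1 pool number are paired. For 45 of 52 arrays, the deviation from the group mean had its highest mean correlation with the arrays of its own pool in other groups. The median correlation was 0.22 within and -0.09 between pools. Deviations cancel over a group, so a positive value within pools goes with a negative one between pools. The fit with the pool as a block was therefore run beside the fit without it. Other alternatives were cyclic loess, no filter, a filter at the 75th percentile (6.34), the mean of probe sets, only the arrays compared, and each pool left out in turn. The genes and lists were chosen with earlier results of these data known. Of the genes described, every called one is named; of each further list, up to 3 with the smallest adjusted p in a comparison. Promoters came from RefSeq (GRCm38.p6), whose table held 29 of the 35 genes.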

Additional observations from a re-analysis of the deposited data

Results flagged for a closer look

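In groups of 4 arrays, an array was looked at again where its distance from the nearest other array, divided by the range of the group, was above 0.829. Of 69 gene and group pairs looked at, 3 passed, and chance alone passes about 1 in 20. Nr2c1 with Rosi at day 1 had a ratio of 0.905, with pool 20 at 7.86 and the next array at 7.96. Nrip1 with Rosi at day 4 had 0.870, with pool 15 at 9.12 and the next array at 9.62. Ncoa3 and Vdr with Rosi at day 4 were also highest in that array. Its macrophage markers differed from vehicle by -0.34, beside -1.56, -1.40 and -1.46 in pools 12, 19 and 20. Endothelial markers differed by -0.61, beside 1.43, 0.47 and 0.68. Adipocyte markers did not set it apart, at 3.01 beside 4.75, 3.02 and 2.68. The part of these shifts in the Nrip1 value was not tested. Nr3c1 with vehicle at day 4 had 0.918, with pool 15 at 8.12 and the next array at 8.34, and every day 4 difference of Nr3c1 from vehicle uses that array.

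By the test of the difference itself in limma, the effect of Rosi differed between day 4 and day 1 for 8 of the 28 genes. Over all genes 30% were called in that test, so the Rosi share was no larger than that of all genes. The effect also differed for Thrb and Nrip1 with TBT (1.77% of all genes called), TPhP (4.49%) and MEHP (6.36%). With Rosi the change was 1.85 ± 0.24 (adjusted p = 2.3e-07) for Thrb, 1.22 ± 0.23 (adjusted p = 5.56e-05) for Nrip1, 0.86 ± 0.20 (adjusted p = 0.000931) for Rora and 0.77 ± 0.16 (adjusted p = 0.000177) for Esrra. It was 0.38 ± 0.14 (adjusted p = 0.038) for Ncoa1, -0.85 ± 0.19 (adjusted p = 0.000401) for Ncoa3, -1.01 ± 0.22 (adjusted p = 0.000329) for Esr1 and -1.04 ± 0.32 (adjusted p = 0.0108) for Vdr. For Thrb it was 0.89 ± 0.24 (adjusted p = 0.0422) with TBT, 1.52 ± 0.24 (adjusted p = 0.000118) with TPhP and 1.29 ± 0.24 (adjusted p = 0.000806) with MEHP. For Nrip1 it was 0.91 ± 0.23 (adjusted p = 0.0232) with TBT, 1.23 ± 0.23 (adjusted p = 0.000674) with TPhP and 1.19 ± 0.23 (adjusted p = 0.000927) with MEHP. The calls lost without a pool are given with the comparison of days.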

How the results depend on the processing

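Under the alternatives run, no named gene changed direction in its comparison. Of the named genes and comparisons, 6 lost their call with cyclic loess, 9 with no filter and 34 with only the arrays compared, and the pool as a block ended none and added 13. Counts of the 28 genes called that moved by over 1.5 times were as follows. With cyclic loess, 5 were called in vehicle day 1 against naive and 0 in the TBT change between days. With no filter the counts were 0 in vehicle day 4 against vehicle day 1, 3 in LG268 against Rosi at day 1 and 1 in the TBT change between days. The stricter filter gave 4 in vehicle day 4 against naive and 2 in vehicle day 4 against vehicle day 1. With the pool as a block the counts were 2 in vehicle day 4 against vehicle day 1, 1 with MEHP at day 1, 8 with TPhP at day 4 and 2 in TPhP against Rosi at day 1, and no other of the 28 counts moved that far. Fitting only the arrays compared gave 3 in vehicle day 4 against naive, 0 in vehicle day 4 against vehicle day 1, 1 with MEHP at day 1, and 0, 3 and 3 with LG268, TPhP and MEHP at day 4. That setting gave 8 in LG268 against Rosi at day 1, 0 in TPhP and 1 in MEHP against Rosi at day 4, and 0 in TBT against LG268 at day 4; it has fewer samples. Without 1 pool at a time the counts ranged from 1 to 4 for vehicle day 1 against naive, 2 to 6 for vehicle day 4 against naive, 0 to 1 for vehicle day 4 against vehicle day 1, 1 to 6 for Rosi at day 1, 1 to 2 for LG268 at day 4, 3 to 8 for TPhP at day 4, 3 to 8 for MEHP at day 4, 1 to 4 for LG268 against Rosi at day 1, 0 to 1 for TBT against Rosi at day 1, 0 to 1 for TPhP against Rosi at day 1, 0 to 1 for MEHP against Rosi at day 1, 3 to 6 for MEHP against Rosi at day 4, 0 to 3 for TBT against LG268 at day 4, 0 to 1 for the TBT change between days and 1 to 3 for the MEHP change between days. Over all genes the block moved 12 of 28 counts by over 1.5 times, fitting only the arrays compared 15, and leaving out pool 12, 15, 19 or 20 moved 6, 11, 22 and 24. With the block the count over all genes was 68 beside 36 for LG268 at day 1, 171 beside 81 for TBT at day 1, 71 beside 32 for TPhP at day 1, 176 beside 78 for MEHP at day 1, 1590 beside 965 for LG268 at day 4, 613 beside 389 for TBT against Rosi at day 1, 478 beside 280 for MEHP against Rosi at day 1, 1 beside 0 for TBT against LG268 at day 1, 751 beside 499 for TBT against LG268 at day 4, 32 beside 12 for the LG268 change between days, 621 beside 264 for the TBT change between days and 1062 beside 669 for the TPhP change between days. With only the arrays compared it was 2093 beside 4308 for vehicle day 4 against naive, 568 beside 1922 for vehicle day 4 against vehicle day 1, 174 beside 81 for TBT at day 1, 190 beside 78 for MEHP at day 1, 369 beside 965 for LG268 at day 4, 1676 beside 2990 for TBT at day 4, 816 beside 2818 for TPhP at day 4, 1048 beside 3548 for MEHP at day 4, 676 beside 389 for TBT against Rosi at day 1, 630 beside 280 for MEHP against Rosi at day 1, 3 beside 0 for TBT against LG268 at day 1, 704 beside 4207 for TPhP against Rosi at day 4, 354 beside 3897 for MEHP against Rosi at day 4, 275 beside 669 for the TPhP change between days and 376 beside 949 for the MEHP change between days. The cause of these moves was not tested. Genes near 4.05 have signals close to background.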
